A study of Mus musculus with 8 samples.

Results

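The feedback inhibitors of MAP kinase signalling were examined in RNA-Seq counts from primordial follicles. The group consisted of 10 genes chosen by name, namely the phosphatases Dusp1, Dusp2, Dusp4, Dusp5, Dusp6 and Dusp10, the Sprouty genes Spry1, Spry2 and Spry4, and the related gene Spred1, out of 26586 genes in the count table. Follicles were isolated from enzymatically digested ovaries of C57Bl/6 x CBA mice on postnatal day 3, and the amplified RNA was sequenced. The mito-supplemented group held 4 libraries from the third generation descended from founders. These founders grew from oocytes given mitochondria of egg precursor cells at sperm injection. The control group held 4 libraries from control mice, whose origin was not given for the RNA-Seq in the sources used here. RNA was extracted from the follicles by ovary, but how many ovaries or animals stand behind each library was not given in the sources used here, so that the p values measure the spread between libraries. Library groups and the sign of each difference follow the sample labels, whereas the colour key of the study's own heat map names the groups the other way round, which was not resolved here.

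MAP kinase cascades carry signals from receptor tyrosine kinases through RAS and the RAF, MEK and ERK kinases to the nucleus. ERK activity induces genes whose products shut the cascade down again, and their mRNA levels are widely used as a readout of recent ERK signalling. The DUSP proteins named above remove phosphate from the MAP kinases themselves, whereas Sprouty and Spred proteins act further upstream, between the receptor and RAF. In the primordial follicle, the best known receptor tyrosine kinase is KIT on the oocyte, whose ligand is made by the surrounding pregranulosa cells.

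The libraries differed in composition before any comparison of groups. Control replicates 1 to 4 held 17658559, 13917412, 18219362 and 10370045 counts, and mito-supplemented replicates 1 to 4 held 19760763, 13370911, 16116434 and 13276462. In control replicate 4, 75.3% of the counts fell on the 4 rRNA genes Rnr1, Rnr2, Rn45s and Rn18s. Of all its counts, 74.0% fell on Rnr1 and Rnr2, against 14.9% to 44.3% in the other 7 libraries. Control replicate 4 thus had 2559876 counts outside the 4 rRNA genes, against 7280214 to 15778975 in the other 7 libraries. Control replicate 1 was rich in oocyte transcripts, with a summed level of 1665 CPM (normalized by TMM) over 10 oocyte markers, while mito-supplemented replicate 4 had the lowest sum, 51.3 CPM. Part of the results below rest on these 3 libraries, and for several of these the value with a library left out is given.

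Of the 10 genes, 9 passed the expression filter and were tested, and Dusp2 did not pass. The quasi-likelihood test of edgeR was run on 13873 genes with p values adjusted by the Benjamini-Hochberg method. Calls needed an adjusted p under 0.05 together with a difference of 2-fold or more, which held for 0 of the 9 and for 0 of all genes (0%). At an unadjusted p value under 0.05, 1 of the 9, Dusp6, was higher in mito-supplemented samples, against 736 (5.31%) of all genes, and 0 were lower, against 333 (2.40%). The count called was 0 of 9 in edgeR's likelihood ratio test, where 58 genes (0.418%) passed, 0 in DESeq2, where 141 (1.02%) passed, and 4 in limma-voom with sample quality weights. The last test called Dusp6, Spry2, Spry4 and Spred1 as higher, along with 1438 (10.4%) of all genes. It weighted control replicate 3 at 3.53 and control replicate 1 at 0.231, and without these weights limma-voom called 0 of the 9 and 0 of all genes.

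**Figure D1:**
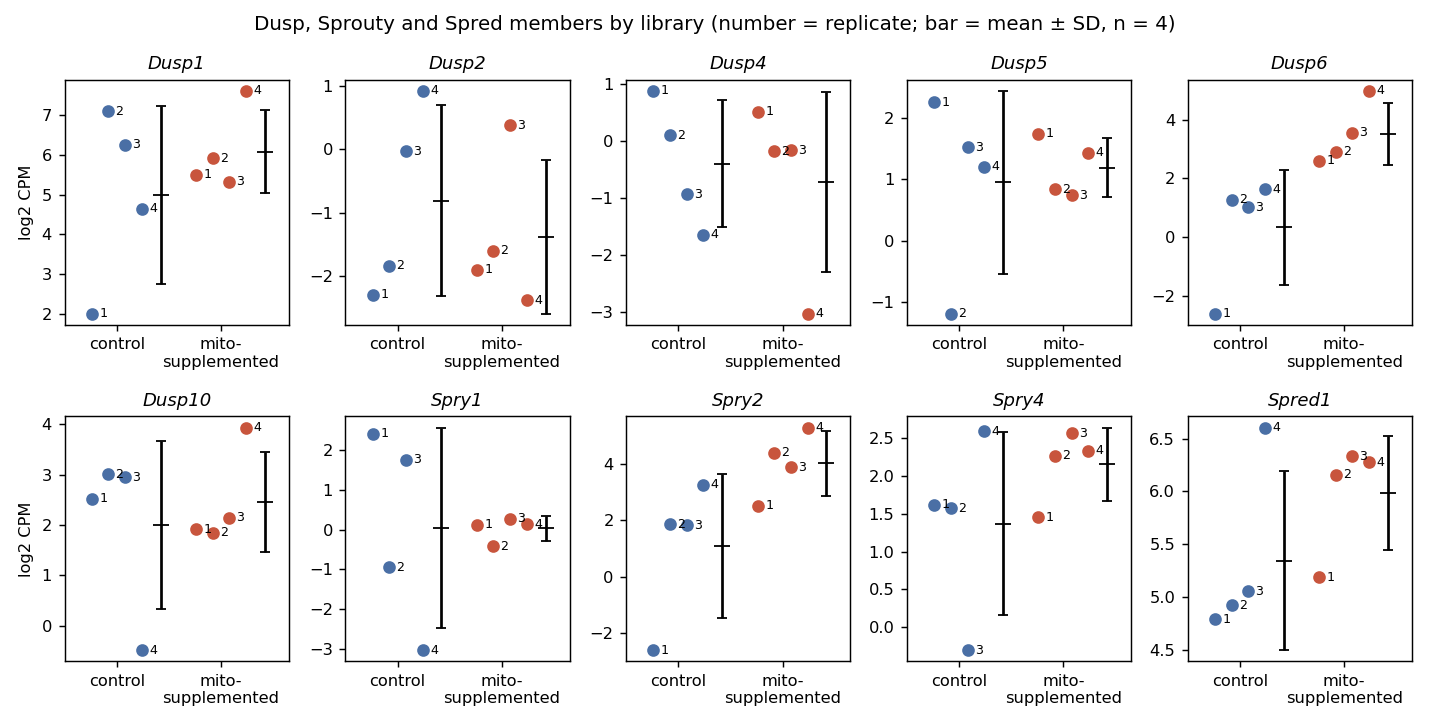
Level of each of the 10 genes in each library, as log2 CPM with a prior count of 2. Numbers mark replicates, and the bars to the right of each group give the mean and SD of 4 libraries. Each panel has its own vertical scale. Dusp6 is the gene whose 4 mito-supplemented libraries all sit above the 4 controls, while the groups overlap for Spry1, Dusp5 and Dusp4.

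Dusp6 (chromosome 10 of GRCm38.p6, 99263231 to 99267489) encodes a cytoplasmic phosphatase with a preference for ERK. Its level was 0.0410, 2.30, 1.89 and 2.96 CPM in control replicates 1 to 4, and 5.97, 7.34, 11.7 and 31.6 CPM in mito-supplemented replicates 1 to 4. The lowest mito-supplemented library was above the highest control, with control replicate 1 close to 0 and mito-supplemented replicate 4 far above the rest. The value of control replicate 1 came from 1 count, with an exact 95% Poisson interval of 0.00104 to 0.229 CPM, which covers counting error only. Mean Dusp6 was 1.80 ± 1.25 CPM for controls and 14.1 ± 11.9 CPM for mito-supplemented libraries (SD, n = 4), and the log2 fold change was 3.00 with a standard error of 1.03. This gave an unadjusted p value of 0.0149 and an adjusted p value of 0.626 in edgeR's quasi-likelihood test (0.200 in its likelihood ratio test and 0.0975 in DESeq2), and a p value of 0.0286 in a two-sided exact permutation test on log2 CPM, the smallest that 4 against 4 libraries allow. Such a separation with mito-supplemented samples higher was seen for 416 genes (3.00%), and with them lower for 282 (2.03%), which included 0 of the 9. The log2 fold change was 2.60 when control replicate 1 was left out, 3.35 when control replicate 4 was, and 2.26 when mito-supplemented replicate 4 was, the last with an unadjusted p value of 0.0601. Over the alternative settings the adjusted p value ran from 0.0277 to 0.971.

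Spry2 (chromosome 14, 105891947 to 105896819), an inhibitor of growth factor signalling above RAF, followed nearly the same course. It had 0.0410, 3.49, 3.43 and 9.47 CPM in control replicates 1 to 4, and 5.63, 20.9, 14.7 and 39.1 CPM in mito-supplemented replicates 1 to 4. The groups overlapped, because control replicate 4 lay above mito-supplemented replicate 1, and 3 of the 4 mito-supplemented libraries lay above all controls. Mean Spry2 was 4.11 ± 3.92 CPM for controls and 20.1 ± 14.2 CPM for mito-supplemented libraries (SD, n = 4), and the log2 fold change was 2.32 with a standard error of 1.08 (adjusted p = 0.655 in edgeR's quasi-likelihood test; range over the alternatives, 0.0333 to 0.971). The two-sided exact permutation test gave p = 0.0571. Without control replicate 4 the log2 fold change was 3.13 and the groups separated, whereas it was 1.92 when control replicate 1 was left out and 1.79 when mito-supplemented replicate 4 was. In control replicate 1, Spry2 and Dusp6 each had 1 count, and in mito-supplemented replicate 4 both reached their highest level.

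The likeness of these profiles was measured over the 8 libraries by root mean square differences of log2 CPM, after each gene was centred on its own mean. Dusp6 and Spry2 differed by 0.603, and among all genes tested Dusp6 was the nearest gene to Spry2. In control replicate 1 both had 1 count, so that their level there, -2.62 log2 CPM, depends on the prior count. Spry2 minus Dusp6 was 0 in that library and ran from -0.08 to 1.64 log2 CPM in the others. A distance without that library is not given here. Spry2 ranked 3rd in distance from Dusp6, whose nearest gene was Trpm4 at 0.475. For each of the other 7 tested members, the nearest fellow member ranked 210 or lower among all genes. Since Dusp6 and Spry2 moved together, the 250 bases before their start sites are shown from RefSeq (GRCm38.p6), along with those of Dusp1 and Dusp5, in which motifs were found. Promoters were matched for 8 of the 10 genes, and Dusp4 and Spry4 had none in the table used. Capitals mark the matches to motifs searched on both strands, namely the CRE (TGACGTCA) in Dusp1 and the CArG box of the serum response element in Dusp5, which has 2 adjoining matches.
Dusp6, chr10:99262981-99263230, plus strand: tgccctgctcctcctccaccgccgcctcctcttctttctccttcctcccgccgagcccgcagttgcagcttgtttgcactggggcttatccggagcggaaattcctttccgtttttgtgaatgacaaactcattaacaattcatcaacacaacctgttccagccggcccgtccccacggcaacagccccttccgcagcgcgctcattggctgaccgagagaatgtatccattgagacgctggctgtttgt
Spry2, chr14:105896820-105897069, minus strand: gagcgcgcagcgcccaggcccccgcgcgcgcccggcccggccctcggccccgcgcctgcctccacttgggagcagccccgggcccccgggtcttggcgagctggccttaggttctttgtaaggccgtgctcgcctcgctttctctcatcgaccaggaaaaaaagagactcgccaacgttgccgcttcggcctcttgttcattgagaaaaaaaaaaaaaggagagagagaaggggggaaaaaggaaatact
Dusp1, chr17:26508473-26508722, minus strand: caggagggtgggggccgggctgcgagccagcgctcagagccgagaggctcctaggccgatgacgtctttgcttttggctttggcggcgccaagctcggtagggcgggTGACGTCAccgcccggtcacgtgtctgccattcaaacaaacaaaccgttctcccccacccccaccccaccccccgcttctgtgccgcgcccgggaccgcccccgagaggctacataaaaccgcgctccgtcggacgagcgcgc
Dusp5, chr19:53528895-53529144, plus strand: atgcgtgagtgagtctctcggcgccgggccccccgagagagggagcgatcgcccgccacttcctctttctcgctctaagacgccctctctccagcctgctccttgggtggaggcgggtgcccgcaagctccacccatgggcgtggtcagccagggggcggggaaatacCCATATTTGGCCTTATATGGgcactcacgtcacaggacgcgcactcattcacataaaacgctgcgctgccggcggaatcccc

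The windows of Dusp6 and Spry2 held 0 matches to the CRE, to AP-1 (TGACTCA or TGAGTCA), to the CArG box, to EGR (GCGGGGGCG or GCGTGGGCG) or to ETS (ACCGGAAGT), which says only that these letters are not in those 250 bases. The CRE of Dusp1 lay 143 to 136 bases before its start, and 508 of 32817 windows (1.55%) held a CRE. The CArG boxes of Dusp5 lay 82 to 73 and 72 to 63 bases before its start, and 482 windows (1.47%) held at least 1. Dusp2 had an EGR match 98 to 90 bases before its start, as found in 3.06% of windows, while AP-1 was found in 4.46% and ETS in 0.801%. Dusp10, Spry1 and Spred1 had no match. The genes with matches carried different motifs, and whether a motif goes with a profile over the libraries was not tested. In control replicate 2, Dusp1 was high at 137 CPM, while Dusp5 was at its lowest, 0.317 CPM from 4 counts.

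Dusp1, a nuclear phosphatase of p38, JNK and ERK that is induced within minutes of stress, had the highest mean level per kilobase of exon in both groups. It had 3.90, 137, 76.4 and 24.9 CPM in control replicates 1 to 4, and 45.0, 60.3, 39.8 and 195.8 CPM in mito-supplemented replicates 1 to 4. The control libraries spanned nearly the whole range, and mito-supplemented replicate 4 alone lay above control replicate 2. Its log2 fold change was 0.49 with a standard error of 0.89 (adjusted p = 0.873 in edgeR's quasi-likelihood test; range over the alternatives, 0.537 to 0.975). It turned to -0.31 without mito-supplemented replicate 4 and to -0.51 in limma-voom with sample quality weights, and was 1.28 without control replicate 2.

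Dusp2, Dusp4 and Dusp5, the other phosphatases of the nucleus, had means under 3 CPM in both groups. Dusp2 had 1 to 26 counts per library, a mean of 0.719 ± 0.787 CPM for controls and one of 0.401 ± 0.522 CPM for mito-supplemented libraries (SD, n = 4). Dusp4, which acts on ERK and JNK, ranged from 0.197 to 1.72 CPM in controls and from 0 to 1.31 CPM in mito-supplemented samples, and the 0 counts of mito-supplemented replicate 4 allow a level of up to 0.209 CPM (3 counts) or 0.256 CPM (exact 95% Poisson interval). Dusp5, which is specific for ERK, ranged from 0.317 to 4.64 CPM in controls and from 1.54 to 3.20 CPM in mito-supplemented samples. For Dusp4 and Dusp5 the mito-supplemented values fell inside the control range or below it. Their log2 fold changes were -0.23 with a standard error of 1.18 and -0.14 with a standard error of 0.87, and the sign of each changed when control replicate 1, in which both were highest, was left out. Dusp10, which prefers p38 and JNK, had 5.62, 7.93, 7.61 and 0.592 CPM in control replicates 1 to 4, and 3.64, 3.46, 4.31 and 15.2 CPM in mito-supplemented replicates 1 to 4. Thus 3 controls lay above 3 mito-supplemented libraries, and 1 library in each group stood apart in opposite directions. Its log2 fold change of 0.28 with a standard error of 0.83 became -0.07 when control replicate 4 was left out and -0.49 when mito-supplemented replicate 4 was.

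Spry1 differed from Spry2 in its course over the libraries. It had 5.21, 0.396, 3.26 and 0 CPM in control replicates 1 to 4, and 0.970, 0.623, 1.09 and 0.973 CPM in mito-supplemented replicates 1 to 4. The controls took the 2 highest and the 2 lowest places, and the mito-supplemented libraries lay between them. The log2 fold change was -1.29 with a standard error of 1.19 (adjusted p = 0.773 in edgeR's quasi-likelihood test) and was -0.43 without control replicate 1. In control replicate 1, Spry1 had 127 counts and Spry2 had 1. Spry4, whose product blocks RAS activation, ranged from 0.686 to 5.92 CPM in controls and from 2.62 to 5.81 CPM in mito-supplemented samples, with a log2 fold change of 0.56 and a standard error of 0.76. Leaving out control replicate 4 gave 1.08 and leaving out control replicate 3 gave 0.22, while sample quality weights gave 2.01. The exons of Spry1 and Dusp5 overlap genes annotated on the opposite strand over 296 and 547 bases, and as the strand setting of the counting was not given in the sources used here, their counts are less certain than those of the other 8.

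Spred1, a partner of the RAS inhibitor neurofibromin, was detected with 381 counts or more in each library. It had 27.5, 30.2, 33.1 and 97.3 CPM in control replicates 1 to 4, and 36.2, 71.3, 80.7 and 77.5 CPM in mito-supplemented replicates 1 to 4. Control replicate 4, the library dominated by rRNA, was the highest of all 8, and the other 3 controls lay below every mito-supplemented library. The log2 fold change was 0.50 with a standard error of 0.49 (adjusted p = 0.783 in edgeR's quasi-likelihood test). Without control replicate 4 it was 1.15, with an unadjusted p value of 0.0147 and an adjusted p value of 0.289, and Dusp6, Spry2 and Spred1 then had no overlap between the groups, as had 8.32% of all genes with mito-supplemented samples higher and 5.41% with them lower.

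**Figure D2:**
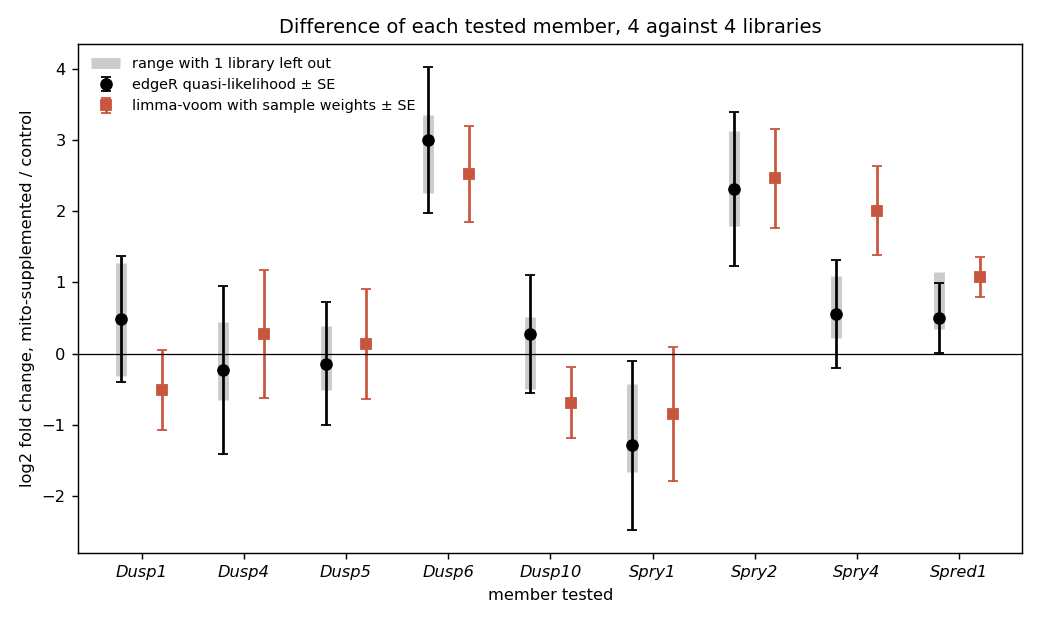
Log2 fold change of mito-supplemented over control samples for the 9 genes tested. Circles are edgeR's quasi-likelihood estimates and squares are limma-voom estimates with sample quality weights, each with its standard error, and grey bars span the estimates with each library left out in turn. Dusp6 and Spry2 stay above 1 throughout, while the bars of Dusp1, Dusp4, Dusp5 and Dusp10 cross 0.

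In total, 6 of the 9 tested genes had a log2 fold change above 0, against 44.9% of all genes tested, and their median was 0.49, against -0.10 for all genes. Without mito-supplemented replicate 4, 5 of these 9 were above 0, against 44.5% of all genes, and their median was 0.22. These are descriptions of a list chosen with earlier results of these data known. The members were not uniform, since the SD of log2 CPM over the 8 libraries ran from 0.74 for Spred1 to 2.42 for Spry2. The extremes lay mostly in 3 libraries. Mito-supplemented replicate 4 had the highest level of Dusp1, Dusp6, Dusp10 and Spry2 and the lowest of Dusp2 and Dusp4. Control replicate 1 had the highest level of Dusp4, Dusp5 and Spry1 and the lowest of Dusp1, Dusp6, Spry2 and Spred1, and control replicate 4 had the highest of Dusp2, Spry4 and Spred1 and the lowest of Dusp10 and Spry1.

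**Figure D3:**
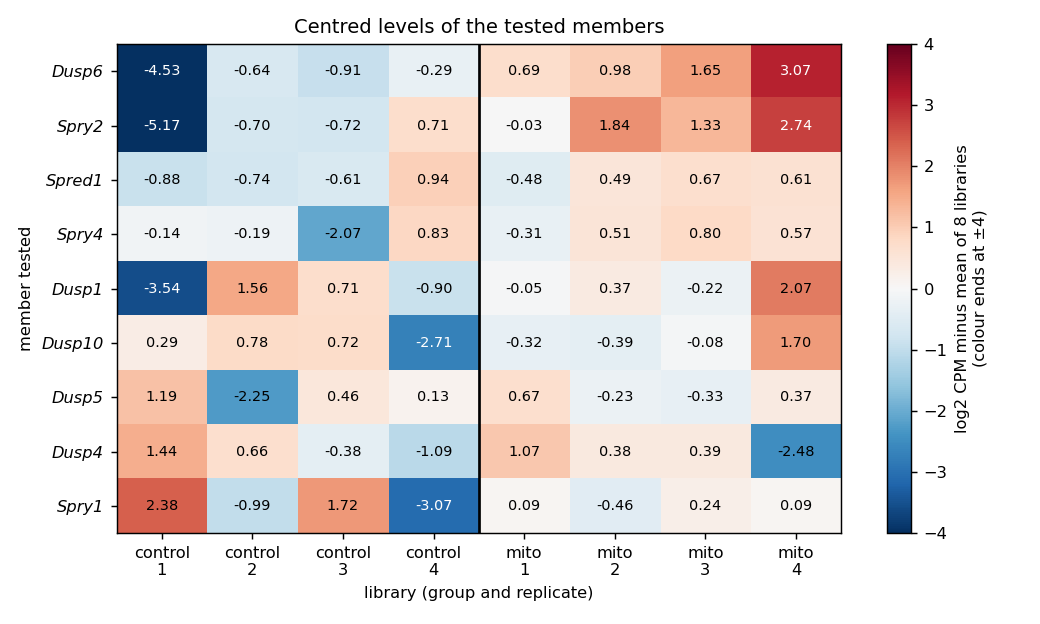
Log2 CPM of the 9 genes tested, centred on each gene's mean over the 8 libraries. Columns are libraries and the line divides controls from mito-supplemented samples. Dusp6 and Spry2 run from -4.53 and -5.17 in control replicate 1 to 3.07 and 2.74 in mito-supplemented replicate 4, while Spry1 is at 2.38 in control replicate 1.

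Ordered by level per kilobase of exon, the controls had Dusp1 first with 30.4 ± 29.9 CPM per kilobase, followed by Spred1 with 6.93 ± 4.95, Spry2 with 1.97 ± 1.88, Dusp10 with 1.95 ± 1.21 and Dusp5 with 0.998 ± 0.719 (SD, n = 4). Spry1, Spry4, Dusp6, Dusp2 and Dusp4 followed with 0.889 to 0.299 CPM per kilobase. In the mito-supplemented samples Dusp1 was again first with 42.8 ± 37.3 CPM per kilobase, followed by Spred1 with 9.79 ± 3.02, Spry2 with 9.62 ± 6.79, Dusp6 with 5.06 ± 4.24 and Dusp10 with 2.38 ± 2.04 (SD, n = 4). Dusp6 was thus in 8th place in controls and in 4th place in mito-supplemented samples. Of the 9 neighbouring pairs in the control order, 1 kept its order in every control library, with Spred1 above Spry2 in 4 of 4, and Dusp10 was above Dusp5 in 3. Spry2 was above Dusp10 and Dusp5 above Spry1 in only 1 library each, and the other 5 pairs held in 2 of 4. In mito-supplemented samples, Dusp1 was above Spred1, Spry2 above Dusp6 and Dusp6 above Dusp10 in 4 of 4 libraries each, and Spred1 was above Spry2 in 3.

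The first part of the library label differed between and within the groups. Libraries labelled 280 were control replicates 1 and 2, those labelled 301 were control replicates 3 and 4, those labelled C56 were mito-supplemented replicates 1 to 3, and mito-supplemented replicate 4 was the single library labelled C60. What these codes stand for was not given in the sources used here. Mean Dusp6 was 1.17 and 2.42 CPM in the control codes 280 and 301, and 8.34 and 31.6 CPM in the codes C56 and C60. Mean Spry2 was 1.76, 6.45, 13.7 and 39.1 CPM in the same order, and mean Dusp1 was 70.5, 50.6, 48.4 and 195.8 CPM. No code held libraries of both groups, so that code and group cannot be told apart.

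Markers of the cell types in and around the follicle also varied between libraries. The 10 oocyte markers had summed levels of 1665, 138.0, 89.9 and 283 CPM in control replicates 1 to 4 and 212, 94.95, 295 and 51.3 CPM in mito-supplemented replicates 1 to 4, with Kit the largest in total and 0 markers at 0 counts. The library with the highest sum, control replicate 1, was the one with 1 count each of Dusp6 and Spry2, and the library with the lowest sum, mito-supplemented replicate 4, was the one highest in both. The other libraries did not follow this order, since mito-supplemented replicate 3 was second highest in both the oocyte sum and Dusp6, and control replicate 3 second lowest in both. The log2 fold change was below 0 for 10 of 10 oocyte markers, with a median of -1.81, and 1, Kit, was at an unadjusted p value under 0.05 (2.40% of all genes were lower at this p). This rests on control replicate 1, without which 3 of 10 were below 0 and the median was 0.27. The 8 pregranulosa markers summed to 178, 99.1, 189.9 and 518 CPM in controls and 318, 669.5, 516 and 636 CPM in mito-supplemented samples, and the median log2 fold change was 0.95, or 0.69 to 1.64 with each library left out. Lgr5 had the largest total over the 8 libraries, though Kitl or Gata4 was above it in each control. The 8 surface epithelium markers summed to 100.1, 56.7, 46.4 and 381 CPM in controls, against 293, 827, 363 and 657 CPM in mito-supplemented samples, and Upk3b had the largest total over the 8 libraries. Of these 8, 8 had a log2 fold change above 0 (44.9% of all genes) and 6 an unadjusted p value under 0.05 (5.31% of all genes were higher at this p), with a median of 1.68. With each library left out the median ran from 1.39 to 3.02, and 1 to 8 had an unadjusted p value under 0.05. Control replicates 1 to 3 were the lowest of all 8 libraries in the pregranulosa and surface epithelium sums, in Dusp6 and in Spry2. Mito-supplemented replicate 1 came next in both sums and in Spry2. Mito-supplemented replicate 2 was highest in both sums, and mito-supplemented replicate 4 in both genes. In these bulk samples fewer cells of a type and less RNA per cell cannot be told apart, and the part of these cell types in the levels of Dusp6 and Spry2 was not tested.

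The other marker lists were also counted. The 6 endothelial markers summed to 25.6, 27.2, 42.3 and 212 CPM in controls, against 94.9, 225, 177 and 201 CPM in mito-supplemented samples, with Kdr the largest in total. Control replicate 4 was highest of the controls in Dusp6, Spry2, Spry4 and Spred1. It also had the highest pregranulosa, surface epithelium, endothelial, stroma and smooth muscle sums among them. The 8 stroma markers summed to 336, 448, 649 and 2199 CPM in controls, and to 949, 978, 2480 and 2182 CPM in mito-supplemented samples, with Col3a1 the largest in total. The 6 smooth muscle and pericyte markers, of which Myh11 was largest in total, summed to 27.9, 21.2, 49.4 and 229.5 CPM and to 43.7, 75.1, 89.5 and 324 CPM, with Rgs5 at 0 counts in control replicates 1 and 2. Immune markers, with Lyz2 the largest in total, summed to 9.23, 129.8, 112 and 21.7 CPM in controls and 722, 10.9, 15.9 and 11.6 CPM in mito-supplemented samples. Red cell markers, with Slc4a1 the largest in total, summed to 13.4, 3617, 2401 and 41.4 CPM and to 4530, 72.9, 20.1 and 19.2 CPM. As in Spry2, control replicates 1 to 3 were lowest in the endothelial and stroma sums, and mito-supplemented replicate 1 came next. The smooth muscle, immune and red cell sums had other orders. The median log2 fold changes of the endothelial, stroma, smooth muscle, immune and red cell lists were 1.10, 0.74, 0.88, 0.54 and -0.35. With each library left out in turn, and the same genes kept, they ran from 0.43 to 1.78, 0.44 to 1.69, -0.17 to 2.10, 0.35 to 1.40 and -5.57 to 0.41, and their part in the levels of the feedback inhibitors was not tested. The immune median turned to -0.27 in limma-voom with sample quality weights, -0.42 with the replicate block and -0.63 in limma-voom without weights. For the summed level of each of the 8 lists, the two-sided exact permutation test gave p values of 0.0857 or more. Limma-voom with sample quality weights called 8 of 8 surface epithelium and 6 of 8 pregranulosa markers (medians 3.12 and 1.77), against 18.6% of all genes. It called 3 of 8 stroma, 2 of 6 endothelial, 1 of 5 immune and 2 of 3 red cell markers. It called 0 oocyte markers, whose median became 0.92, and 0 smooth muscle markers. The likelihood ratio test called Upk1b and Esam, and DESeq2 called these, Amhr2 and Lgr5.

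**Figure D4:**
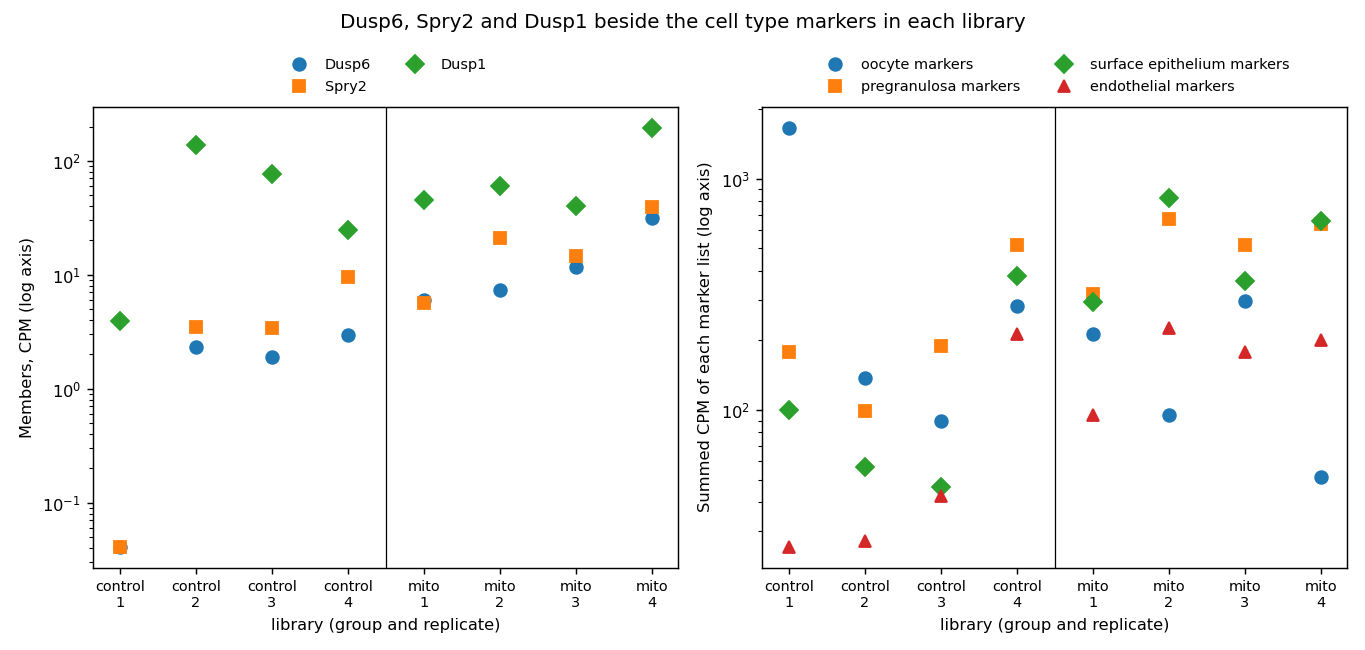
Left, CPM of Dusp6, Spry2 and Dusp1 in each library, and right, summed CPM of the oocyte, pregranulosa, surface epithelium and endothelial markers, both on log axes. The vertical line divides controls from mito-supplemented samples. Control replicate 1 has the lowest Dusp6, Spry2 and Dusp1 and the highest oocyte sum, 1665 CPM, while mito-supplemented replicate 4 has the highest of the 3 genes and the lowest oocyte sum, 51.3 CPM.

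The genes whose centred profile lay nearest to the mean of the 9 tested members were Wsb1, Oat, Notch2, Nfkb1 and Zfp935, at root mean square differences of 0.107, 0.153, 0.172, 0.194 and 0.212 on the log2 scale over 8 libraries. Their log2 fold changes were 0.84, 0.77, 0.92, 1.23 and 1.13, each with an adjusted p value of 0.603 or more in edgeR's quasi-likelihood test. The mean profile averages members that moved in opposite directions, and single members had other neighbours. The nearest gene was Jrkl for Dusp1 (0.490), Nsun6 for Dusp4 (0.287), Morn2 for Dusp5 (0.413), Kat5 for Dusp10 (0.308), Adhfe1 for Spry1 (0.373), Evc for Spry4 (0.203) and Sept9 for Spred1 (0.154).

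The rest of the pathway was described by lists, from ligand to target, which were chosen with earlier results of these data known. For comparison with the counts below, 44.9% of all genes tested had a log2 fold change above 0. At an unadjusted p value under 0.05 in edgeR's quasi-likelihood test, 5.31% of all genes were higher and 2.40% lower. Among 14 ligands tested, 9 had a log2 fold change above 0 and 4 of these an unadjusted p value under 0.05, with a median of 0.72, or -0.00068 over the same 14 without mito-supplemented replicate 4. Fgf18, a fibroblast growth factor, was highest at 3.67 with a standard error of 0.97 (adjusted p = 0.544 in edgeR's quasi-likelihood test, 0.0423 in its likelihood ratio test and 0.00807 to 0.971 over the alternatives), and Hbegf was lowest at -1.32, or -0.26 without control replicate 4. Kitl, the KIT ligand, was at -0.40 with a standard error of 0.51, or -0.06 without control replicate 4. Among 14 receptors, 11 were above 0 and 2 of these had an unadjusted p value under 0.05, with a median of 1.01, or 0.55 without mito-supplemented replicate 4. Kit was lowest at -2.06 with a standard error of 0.85, and was at -0.54 without control replicate 1, and Erbb3 was highest at 3.58, or 0.59 without mito-supplemented replicate 4. Neither gene passed the adjusted threshold under any setting that gave it an adjusted p value, and DESeq2 gave none for Erbb3.

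The cascade between receptor and nucleus held 0 genes at an unadjusted p value under 0.05 in edgeR's quasi-likelihood test, while limma-voom with sample quality weights called 3 of the 44 tested (6.82%, against 18.6% of all genes), Gab2, Mras and Rps6ka1. Among 15 adaptor and RAS genes tested the median log2 fold change was 0.14, with Rras highest at 1.02, or 0.32 without mito-supplemented replicate 4, and Frs2 lowest at -0.49. Among 15 kinases of the ERK cascade the median was 0.01, with Ksr1 at 1.03, or 0.28 without mito-supplemented replicate 4, and Rps6ka1 at -0.85, or -0.28 without control replicate 2 and -1.49 with sample quality weights. Of these, Mapk3, which encodes ERK1, had 31.6 ± 7.58 CPM among controls against 46.9 ± 19.4 CPM (SD, n = 4), and its log2 fold change was 0.57 with a standard error of 0.38, or 0.28 without mito-supplemented replicate 4. Among 14 kinases of the JNK and p38 cascades the median was -0.04, with Map2k6 highest at 0.76 and Map3k5 lowest at -1.28, or -0.61 without control replicate 1.

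Of 14 genes tested that are transcribed in response to ERK, 12 had a log2 fold change above 0, against 44.9% of all genes. Of these, 4 had an unadjusted p value under 0.05, against 5.31% of all genes that were higher at this p. The median was 0.82, or 0.60 over the same 14 without mito-supplemented replicate 4. Fosb was highest at 3.19 and Egr2 lowest at -0.84. Egr1 and Fos, which were at 2.55 and 3.15, separated the groups as Dusp6 did, but control replicate 1 had 125.6 and 10.3 CPM of them. Egr1, Fos and Fosb were called in edgeR's likelihood ratio test (adjusted p = 0.0132, 0.00410 and 0.0274, against 0.440, 0.440 and 0.540 in its quasi-likelihood test), in DESeq2 and in limma-voom with sample quality weights, whereas Dusp6 was called in the last of these only. Of 11 heat shock and stress genes that tissue digestion is known to induce, 4 were higher and 2 lower at an unadjusted p value under 0.05 (5.31% and 2.40% of all genes), and the median was -0.02. This median joins 5 genes above 0 (Atf3, Nr4a1, Zfp36, Klf6 and Btg2, from 4.14 to 1.03) and 6 heat shock genes below 0 (from -0.02 to -3.42). Atf3 was highest at 4.14 and was called in the same 3 tests (adjusted p = 0.440 in edgeR's quasi-likelihood test and 0.000850 in its likelihood ratio test). Zfp36 was called in these 3 tests as well. Nr4a1 was called in DESeq2 and in limma-voom with sample quality weights, and Hsp90aa1 in the latter only. Hspa1b was lowest at -3.42, which rests on control replicates 2 and 3 with 326 and 125.6 CPM, while control replicates 1 and 4 with 0.985 and 1.78 CPM lay below every mito-supplemented library. It was -2.02 without control replicate 2 and -0.80 in limma-voom without weights, and the part of the isolation in the levels of the feedback inhibitors was not tested.

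Other DUSP, Sprouty, Spred and receptor feedback genes outside the 10 were mixed. The DUSP list was drawn by gene name, and whether each of its genes acts on MAP kinases was not examined. Of 13 other DUSP genes tested, 5 had a log2 fold change above 0 and 1 of these, Dusp3, an unadjusted p value under 0.05, with a median of -0.22. Dusp3 ran from 2.09 to 10.9 CPM in controls and from 11.01 to 21.7 CPM among mito-supplemented libraries, and its log2 fold change was 1.45 with a standard error of 0.61 (adjusted p = 0.636 in edgeR's quasi-likelihood test; range over the alternatives, 0.0348 to 0.971). Dusp14 was lowest at -2.63, and at 0.66 without control replicate 1. Of 11 other Sprouty, Spred and receptor feedback genes tested, 7 were above 0 and 0 had an unadjusted p value under 0.05, with a median of 0.40. Socs3, an inhibitor of cytokine receptors, was highest at 3.08 with a standard error of 1.39, and its groups overlapped through control replicate 3. Rasa2 was lowest at -0.25, and at 0.79 without control replicate 1. Thus in each of these 9 lists, as in the 10 genes, 0 genes were called by the quasi-likelihood test. Of the 121 genes tested in the 9 lists, the likelihood ratio test called 6 (4.96%, against 0.418% of all genes). DESeq2 called 7 (5.79%, against 1.02%) and limma-voom with sample quality weights 24 (19.8%, against 18.6%). The 6 were Fgf18, Egr1, Fos, Fosb, Atf3 and Zfp36, to which DESeq2 added Nr4a1. As the lists were chosen with earlier results of these data known, these shares are descriptions and do not test the pathway.

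**Figure D5:**
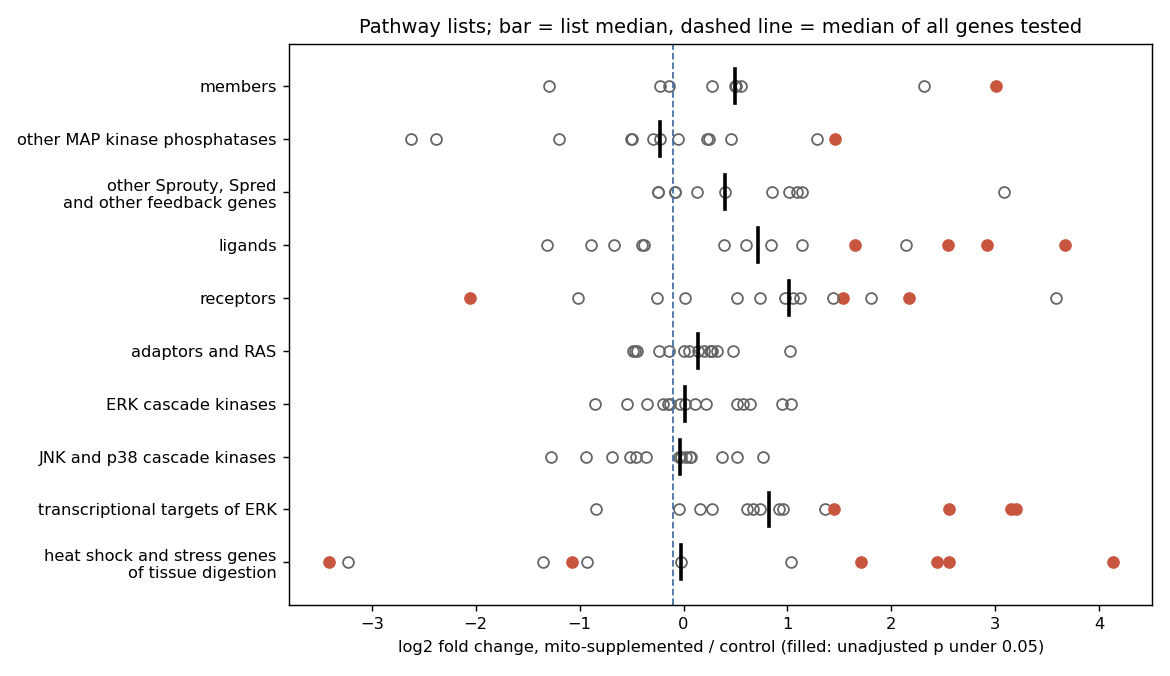
Log2 fold change of mito-supplemented over control samples for each gene tested in the 10 feedback inhibitors and in 9 pathway lists. Filled points had an unadjusted p value under 0.05, bars are list medians and the dashed line is the median of all genes tested, -0.10. Ligands, receptors and ERK targets have medians of 0.72 to 1.01, and the kinase lists lie near the dashed line.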

How the data were processed

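RNA-Seq of primordial follicles from 4 mito-supplemented and 4 control samples was analysed. Per the submitters' notes, the authors trimmed reads with Trim Galore 0.4.4, mapped them with STAR 2.5.3a, and deposited raw counts per gene from featureCounts. These counts were normalized by TMM in edgeR 4.0.16 (R 4.3.3), with the default expression filter and the quasi-likelihood test with Benjamini-Hochberg adjustment over all genes tested. Standard errors were derived from the F statistic. Alternatives used the likelihood ratio test, DESeq2 1.42.0, limma 3.58.1, other normalizations and filters, summed label codes, a replicate block and each library left out. A further control library that the authors excluded was not analysed here, and Spry3, Hras, Adgre1, Hbb-bs and Hbb-bt were not matched under these symbols. The code was tested on simulated counts. The members and lists were chosen with earlier results of these data known. The 10 members were named in full, and from each pathway list the highest and lowest log2 fold changes at a mean of at least 1 CPM, with Kit, Kitl, Mapk3, Egr1, Fos and Atf3 always named; 1 further gene of that plan is not reported here. Exon lengths and overlaps came from GENCODE M21 (transcripts with a RefSeq match).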

Additional observations from a re-analysis of the deposited data

Results flagged for a closer look

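Of 74 groups of 4 libraries examined, 7 held a library that stood far from the other 3, and chance gives about 3.7. The level of Dusp6 in control replicate 1 was -2.62 log2 CPM, from 1 count, against 1.01 to 1.62 in the other controls. Dusp10 was at -0.49 log2 CPM in control replicate 4, from 3 counts, against 2.52 to 3.01, and at 3.93 in mito-supplemented replicate 4, against 1.84 to 2.15. Spred1 was at 6.61 log2 CPM in control replicate 4, against 4.79 to 5.05, and at 5.18 in mito-supplemented replicate 1, against 6.16 to 6.34. Rasa2 was at 5.17 log2 CPM in mito-supplemented replicate 3, against 4.92 to 4.95. Nfkb1 was at 5.23 log2 CPM in mito-supplemented replicate 4, against 4.73 to 4.79.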

How the results depend on the processing

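Of 188 log2 fold changes of the tested members under the alternatives, 171 kept their direction and side of an adjusted p of 0.05, 4 passed it and 13 reversed. Of 567 for the other named genes, 540, 18 and 9 did. Among the 18 was Notch2 in limma-voom with sample quality weights, at a log2 fold change of 0.73, which is under 2-fold. limma-voom without sample weights was chosen after seeing the data. Genes called were 58 in the likelihood ratio test, 141 in DESeq2 and 2578 in limma-voom with sample quality weights, and 0 in the other 18 alternatives. Genes at an unadjusted p value under 0.05 were 5222 with sample weights and 572 to 2003 with each library left out (1863 without control replicate 4, 636 without mito-supplemented replicate 4). With library size only, 1288 were higher and 53 lower, and the median of all genes moved from -0.10 to 0.17, by 0.27.

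Members called were 4 with sample weights. Members at an unadjusted p value under 0.05 were 4 with sample weights (37.6% of all genes), 3 with library size only (Dusp6, Spry2 and Spred1; 9.67%), and 2 (Dusp6 and Spry2) in the likelihood ratio test, the fit without legacy settings, DESeq2, limma-voom without weights, the filter of at least 1 count, the counts summed by label code and the replicate block (9.20%, 10%, 10.8%, 10.3%, 7.54%, 7.50% and 7.07% of all genes), and 0 to 3 with each library left out (3.95% to 14.1%), against 1 in the main test (7.71%). The labels do not state that samples are paired by their replicate numbers. Same-numbered deviations correlated at -0.24, -0.19, -0.33 and 0.22, which cannot exclude a shared batch, and the block gave 0 genes called. Members without overlap were 2 with library size only, where 6.83% of all genes had none, and 1 to 3 with each library left out, where 5.72% to 13.7% had none, against 5.03% with all 8 libraries. By direction, library size only gave 6.62% with mito-supplemented samples higher and 0.202% with them lower, against 3.00% and 2.03% in the main setting.

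The reversed log2 fold changes with sample weights were -0.51 for Dusp1, 0.27 for Dusp4, 0.13 for Dusp5, -0.69 for Dusp10, 0.46 for Rasa2, 0.44 for Map3k5 and 0.43 for Egr2. With the block they were 0.22 for Dusp5, 0.28 for Rasa2 and 0.33 for Egr2. With library size only it was 0.11 for Kitl, and without sample weights 0.10 for Dusp5. With each library left out, Dusp1 ran from -0.31 to 1.28, Dusp4 from -0.66 to 0.44, Dusp5 from -0.51 to 0.39, Dusp10 from -0.49 to 0.51, Dusp14 from -3.28 to 0.66, Rasa2 from -0.53 to 0.79 and Egr2 from -1.34 to 0.44. For each of these the cause was not tested. Some members had few counts in single libraries, and a count of 0 in control replicate 4 allows up to 0.592 CPM (3 counts) or 0.728 CPM (exact 95% Poisson interval).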
